A study of Mus musculus with 6 samples.

Results

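The potassium and mechanosensitive channel genes of the vessel wall were followed in primary mouse aortic endothelial cell cultures. They are 10 genes chosen by name: Kcnj8, Abcc9, Kcnma1, Kcnn3, Kcnn4, Kcnj2, Trpv4, Trpc1, Trpc6 and Piezo1 (listed as Fam38a in older annotation). All 18 probe sets that the array annotation assigns to these genes were taken, of 45101 on the array, where 18193 genes are named. The transgenic group carried a dominant negative form of human PPARG, V290M, under the promoter of the endothelial cadherin gene CDH5, and the other group came from non-transgenic mice. Both groups were strain C57 and untreated, with no age given, and each culture pooled the cells of 2 mice. Of 5 cultures grown per group 3 were put on arrays, so n = 3 cultures per group on 6 Affymetrix arrays.

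Potassium channels set the membrane voltage of vascular cells: opening them lets potassium leave, makes the cell interior more negative and, in smooth muscle, relaxes the vessel. In endothelium the same voltage change spreads to the muscle through cell contacts and draws calcium into the endothelial cell. Mechanosensitive and TRP channels admit calcium and other cations on stretch, flow or receptor signals, and the calcium-activated potassium channels read that calcium.

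Levels are given as log2(signal + 16), where the signal is the deposited MAS5 value, and differences are transgenic minus non-transgenic on that scale. The added 16 shrinks the differences of dim genes, so their size depends on it. Each gene is represented by its brightest probe set, unless another is named. A level filter was set at the median of all probe sets, 7.717 (a signal of 194), and genes whose mean over the 6 arrays reached it were tested with limma. Standard errors (SE) are limma's moderated ones. Median signals per array were 219.9 to 222.9 on the non-transgenic and 173.0 to 186.1 on the transgenic arrays. The third transgenic array had a mean rank correlation of 0.972 with the non-transgenic arrays and of 0.907 with the other transgenic arrays, so values without it are given beside the results it moves. For the Gapdh controls, signal near the 3′ end over signal near the 5′ end was 1.51 to 1.71 without the transgene and 1.20 to 1.44 with it (p = 0.1 in a two-sided exact permutation test, which cannot go lower with 3 cultures on each side). For beta-actin it was 1.83 to 2.17 and 1.40 to 2.21, with overlap (exact permutation p = 0.5). The part of these ratios in the channel gene differences was not tested. Of 20 endothelial markers 8 lay above the filter, with Cdh5, Pecam1, Tie1, Kdr, Nos3, Vwf and Cldn5 among those under it, against 16 of 16 fibroblast, 9 of 13 smooth muscle and 6 of 10 pericyte markers. In such bulk RNA, fewer cells of a type and less RNA per cell cannot be told apart.

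Of the 10 channel genes, 5 lay above the filter (Kcnj8, Abcc9, Kcnn4, Trpc1 and Piezo1) and 5 under it (Kcnma1, Kcnn3, Kcnj2, Trpv4 and Trpc6), where 61.6% of all named genes on the array lay above it. Of the 18 probe sets 13 lay under it. No tested channel gene passed limma's adjusted p of 0.05, 0 of 5, against 0.0% of all 11208 tested genes. One of the 5, Kcnn4, had an unadjusted p under 0.05, where 11.5% of tested genes did. Transgenic cultures lay higher on average for Kcnn4, Piezo1, Kcnn3, Trpv4, Kcnj8 and Kcnj2 and lower for Abcc9, Trpc1, Kcnma1 and Trpc6. The median difference was 0.06 over the 10 genes, of which 5 were untested, and -0.03 over all 18193 genes without a filter. The groups did not overlap for 3 of the 10 genes (Kcnn4 higher, Kcnma1 and Trpc6 lower), against 14.6% of all genes without a filter. Among the 5 tested it was 1 gene, Kcnn4, against 16.1% of tested genes. Of the 18 probe sets the groups did not overlap for 3, against 18.4% of all probe sets, and 3 had an unadjusted p under 0.05, against 13.6%. Over the 10 genes 2 had one, against 9.86%. Higher in all transgenic cultures were 7.49% of genes without a filter and lower in all of them 7.07%. Without transgenic culture 3, limma called 0 of the 5 tested channel genes and 14.7% of all tested genes.

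**Figure D1:**
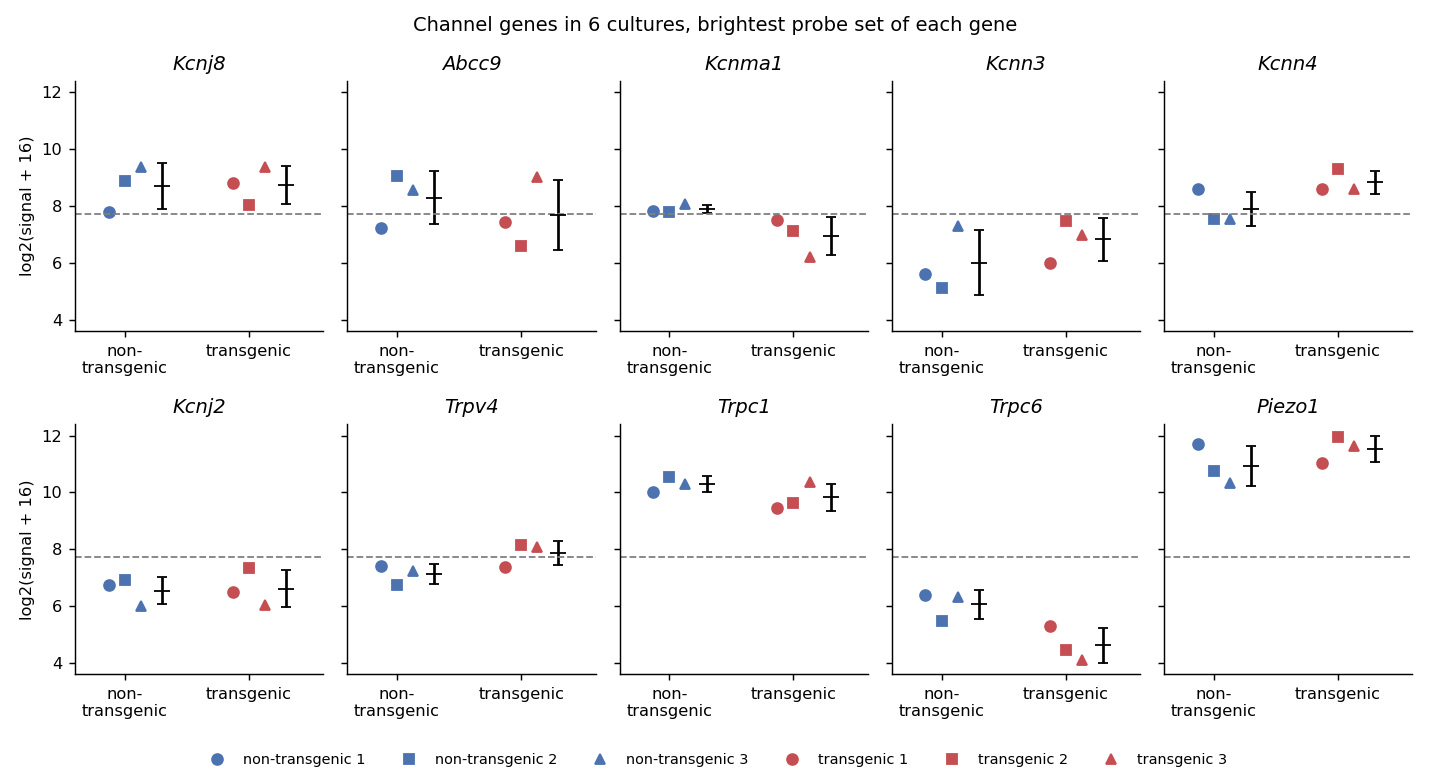
Level of each channel gene in log2(signal + 16), one point per culture, with the group mean and SD (n = 3) beside the points and the level filter of 7.717 as a dashed line. Kcnn4 lay at 8.61 or above in all 3 transgenic cultures, Trpc6 lay under the filter throughout, and Abcc9 spread over 2.48 units.

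The pore gene Kcnj8 and the regulatory gene Abcc9 encode the 2 subunits of the vascular ATP-sensitive potassium channel, which opens when cellular ATP runs low and is the target of vasodilator drugs. Both are also used as markers of pericytes. In RefSeq's mouse table they are next to each other on chromosome 6, read from the same strand, with 0 other genes between. The 250 bases before each start are shown because the 2 genes belong to one channel and are neighbours. They are from RefSeq, build GRCm38.p6, at chr6:142571615-142571864 and chr6:142702275-142702524, both on the minus strand and written 5′ to 3′ in the direction of transcription. Capitals mark CATTCC, the core of the element bound by TEAD factors, GGGCGG, the GC box, and TATAAA, each on either strand.
Kcnj8: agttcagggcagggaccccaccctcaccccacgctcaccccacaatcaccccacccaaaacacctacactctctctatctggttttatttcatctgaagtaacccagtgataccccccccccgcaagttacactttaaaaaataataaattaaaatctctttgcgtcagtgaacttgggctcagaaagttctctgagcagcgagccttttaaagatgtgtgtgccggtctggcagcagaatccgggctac
Abcc9: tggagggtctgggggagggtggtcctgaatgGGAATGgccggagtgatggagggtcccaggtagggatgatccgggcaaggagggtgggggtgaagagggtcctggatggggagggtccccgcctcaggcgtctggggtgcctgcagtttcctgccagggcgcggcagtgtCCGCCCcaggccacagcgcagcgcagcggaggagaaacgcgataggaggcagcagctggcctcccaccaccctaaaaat
The windows differed in composition, with 49.2% G and C before Kcnj8 and 66.8% before Abcc9, against a median of 52.4% over the 32851 promoter windows in the table. The window of Abcc9 held 1 CATTCC and 1 GC box, and that of Kcnj8 held neither.

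Kcnj8 had non-transgenic levels of 7.81, 8.90 and 9.38 and transgenic levels of 8.80, 8.05 and 9.37. The groups covered nearly the same range, and non-transgenic culture 1 was the lowest of the 6. The difference of 0.05 ± 0.49 (SE, limma adjusted p = 0.977) had a 95% interval of -1.10 to 1.19. Changes of either sign within it remained compatible with these values. Its sign turned when the first non-transgenic array (-0.40) or the third transgenic array (-0.27) was left out, and with estimated array weights (-0.12).

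Abcc9 had non-transgenic levels of 7.25, 9.07 and 8.58, and transgenic levels of 7.44, 6.59 and 9.01. Transgenic cultures 1 and 2 were low together with non-transgenic culture 1, while transgenic culture 3 lay beside the 2 brighter non-transgenic cultures. The transgenic mean of 7.68 lay just under the filter, and the non-transgenic mean of 8.30 brought the gene above it. The difference of -0.62 ± 0.69 (SE, limma adjusted p = 0.718) was smaller than the SD within either group, 0.94 and 1.23. It was -1.29 without transgenic culture 3 (adjusted p = 0.15) and -1.15 without non-transgenic culture 1, but -0.24 without non-transgenic culture 2 and -0.08 without transgenic culture 2. With array weights it was -1.39 and passed (adjusted p = 0.0069), in a fit that called 49.1% of all tested genes, and when each array was centred on its median it was -0.35.

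The other 2 probe sets of Abcc9, both under the filter, showed a similar order of cultures. One was at 6.94, 7.89 and 7.94 against 5.87, 5.78 and 8.12, a difference of -1.0 ± 0.64 (SE). The dimmer was at 6.35, 6.69 and 6.97 against 5.71, 6.07 and 7.54, a difference of -0.23 ± 0.50. On all 3 probe sets transgenic culture 3 lay at or near the top while transgenic cultures 1 and 2 lay low. Marker lists are given here as the mean log2 difference from the non-transgenic group over the markers above the filter, and as the signal summed over all markers on the array. The pericyte mean, over 6 of 10 markers, was 0.60, 0.33 and 0.32 in transgenic cultures 1, 2 and 3, while the median of its differences between the groups was -0.01. Its markers moved unequally: Ndufa4l2 (2.03) and Cox4i2 (1.16) lay higher with the transgene, whereas Anpep, at 9.92, 9.56 and 9.58 against 8.86, 8.02 and 10.46, was low in transgenic cultures 1 and 2, and Notch3 was low in culture 1 (10.77 against 11.02 to 12.57). The summed pericyte signal was 19161 to 28615 without and 22077 to 26167 with the transgene, with Cspg4, Higd1b, Vtn and Rgs4 under the filter.

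The adipocyte mean, over 8 of 10 markers, was 1.32, -0.45 and -0.87 without the transgene and -1.51, -2.91 and -0.71 with it, lowest in transgenic culture 2 as Abcc9 was, but highest in non-transgenic culture 1, where Abcc9 was low. Its summed signal was 65258 to 102096 against 28969 to 53476, with Lep and Pck1 under the filter. The smooth muscle mean, over 9 of 13 markers, was -0.09, -0.14 and -0.06 with the transgene, and the sum 31851 to 48684 against 35253 to 44464. Myh11, Cnn1, Des and Actg2 were under the filter. Of these, Des (2.23) and Actg2 (2.35) lay higher with the transgene on average, and Myh11 (-0.06) and Cnn1 (-0.37) lower. The fibroblast mean, over 16 of 16 markers, was -0.15, -0.42 and 0.09 with the transgene, and the sum 258539 to 290196 against 247267 to 265482. The part of these cell type markers in the Abcc9 values was not tested.

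Kcnma1 encodes the pore of the large-conductance calcium-activated potassium channel, which in arteries is a brake on smooth muscle contraction. Its brightest probe set lay just above the filter without the transgene, at 7.84, 7.78 and 8.06, and under it with the transgene, at 7.53, 7.13 and 6.23. All 3 transgenic cultures lay below every non-transgenic culture, as for 7.07% of genes without a filter. The difference was -0.93 ± 0.40 (SE, unadjusted p = 0.05 and limma adjusted p = 0.505 without a filter). It was -0.56 without transgenic culture 3, the lowest, and -0.42 as the mean of all 5 probe sets. The other 4 probe sets differed by -0.58 ± 0.38, -0.41 ± 0.49, -0.17 ± 0.40 and -0.01 ± 0.26 (SE) and overlapped between the groups, the last having a signal of 2.2 to 4.3 on every array. The second brightest, at 7.84, 7.12 and 7.20 against 7.45, 7.66 and 6.53, was also lowest in transgenic culture 3, with the other cultures mixed.

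**Figure D2:**
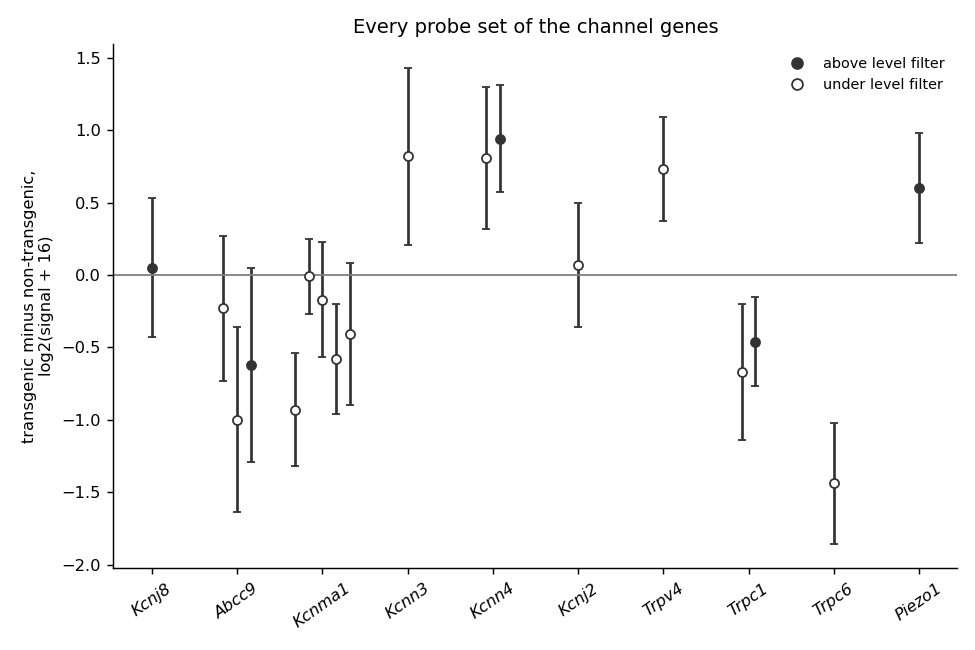
Difference between the groups for each of the 18 probe sets of the 10 channel genes, transgenic minus non-transgenic in log2(signal + 16), with limma's SE and filled points for the 5 probe sets above the level filter. The 2 probe sets of Kcnn4 lay at 0.81 and 0.94, and the 5 of Kcnma1 between -0.93 and -0.01.

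Kcnn4 and Kcnn3 encode the intermediate- and the small-conductance calcium-activated potassium channel. In artery endothelium these carry the hyperpolarization that follows calcium entry, and Kcnn4 is also used by activated lymphocytes, macrophages and dividing mesenchymal cells. Kcnn4 gave non-transgenic signals of 373.9, 172.1 and 171.7 and transgenic signals of 374.9, 620.5 and 375.6, or 8.61, 7.56 and 7.55 against 8.61, 9.31 and 8.61. The groups did not overlap, by a margin of one signal unit between the brightest non-transgenic and the dimmest transgenic culture. All 3 transgenic cultures lying above was shared by 9.39% of tested genes. The difference was 0.94 ± 0.39 (SE, unadjusted p = 0.0442, limma adjusted p = 0.428), with a 95% interval of 0.03 to 1.85.

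The Kcnn4 difference kept its sign and stayed between 0.71 and 1.29 in every alternative run, and without transgenic culture 3 it was 1.06 (limma adjusted p = 0.122). It passed with array weights (1.01, adjusted p = 0.00469), in the fit that called 49.1% of all tested genes. Its adjusted p in the other alternatives that tested it was 0.122 to 0.906. A second probe set, under the filter, was at 5.11, 5.05 and 4.72 against 5.29, 6.94 and 5.10, with transgenic culture 2 standing out as it did on the first. Cell cycle genes, 19 on the array and all above the filter, had a mean log2 difference from the non-transgenic group of 0.65, -0.29 and -0.36 in its own cultures and of 1.95, 2.39 and -0.10 with the transgene. Kcnn4 and the cell cycle mean were both highest in transgenic culture 2, and both highest in culture 1 among the non-transgenic cultures. In transgenic cultures 1 and 3 Kcnn4 was at 8.61 in both, and the cell cycle mean at 1.95 and -0.10. Of 17 leukocyte and macrophage markers, 10 were above the filter on the array of transgenic culture 2 and 4 or 5 on each other array. Their summed signal was 3319 to 5022 in the non-transgenic and 4922 to 22313 in the transgenic group, with Ptprc, Cd68, Cd3e and Cd79a among the 13 under the filter on average. Cd53 was the brightest of the list in transgenic cultures 1 and 2, at 12.65 and 13.29. Of the 4 above the filter, Cd53 (2.54), Csf1r (1.83) and Lyz2 (1.15) lay higher with the transgene and Cd14 (-0.17) lower. Of those under it, Ptprc (-1.06) and Tyrobp (-0.34) lay lower and Cd68 (0.99) and C1qa (1.02) higher. The part of these markers in the Kcnn4 values was not tested.

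Kcnn3 lay under the filter in every culture, with non-transgenic levels of 5.61, 5.12 and 7.30 against 6.02, 7.47 and 7.0. The third non-transgenic culture was nearly as high as the highest transgenic one, so the groups overlapped. The difference of 0.82 ± 0.62 (SE, limma adjusted p = 0.655 without a filter) was 1.47 without that culture, 0.38 without non-transgenic culture 2 and 0.50 without transgenic culture 2. Kcnj2 encodes an inward rectifier that answers small rises of potassium outside the cell and is known as a flow-sensitive channel of endothelium. It was at 6.74, 6.91 and 6.0 against 6.50, 7.33 and 6.03, under the filter in every culture. Its difference of 0.07 ± 0.44 (SE) had a 95% interval of -0.95 to 1.09, and the cultures of both groups were mixed in order.

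Kcnn4 and the stretch-activated cation channel Piezo1 had the most similar values of any pair among the 5 tested channel genes. Likeness was measured as the root mean square difference of log2 values, each gene centred on its mean over the 6 arrays, and was 0.27 for this pair, with 0.6% of tested genes closer to Kcnn4 than Piezo1 was. Their promoter windows are shown for that reason, in the same layout, at chr7:24370013-24370262 on the plus strand and chr8:122551330-122551579 on the minus strand, build GRCm38.p6, from RefSeq.
Kcnn4: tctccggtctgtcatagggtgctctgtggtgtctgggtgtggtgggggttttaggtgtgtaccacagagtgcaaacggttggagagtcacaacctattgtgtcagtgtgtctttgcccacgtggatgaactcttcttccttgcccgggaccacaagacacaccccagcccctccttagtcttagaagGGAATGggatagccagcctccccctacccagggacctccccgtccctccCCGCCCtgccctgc
Piezo1: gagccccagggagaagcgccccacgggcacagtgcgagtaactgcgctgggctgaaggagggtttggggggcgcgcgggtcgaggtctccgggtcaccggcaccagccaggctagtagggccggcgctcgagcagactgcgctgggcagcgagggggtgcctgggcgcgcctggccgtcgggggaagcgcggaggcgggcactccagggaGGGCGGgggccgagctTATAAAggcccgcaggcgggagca
The window of Kcnn4 held 1 CATTCC and 1 GC box, and that of Piezo1 held 1 GC box and 1 TATAAA. Over all 10 channel genes, CATTCC was in 2 windows, GGGCGG in 7 and TATAAA in 1, against 12.6%, 32.7% and 12.4% of all promoter windows of this length. Apart from that of Kcnj8 (49.2%), the channel gene windows held 56.4% to 79.2% G and C, above the median of 52.4% over all windows. The part of this composition in the GC box count was not tested. The site known for PPARG with its partner RXR, a direct repeat of AGGTCA with any 1 base between the copies (DR1), was in 0 of 10 windows and in 0.03% of all. A single AGGTCA, which every DR1 also contains, was in 0 of 10 and in 14.0% of all. The AP-1 site TGANTCA was in 0 of 10 and in 6.75% of all. All motifs were searched on both strands.

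Piezo1, which opens on membrane stretch and flow and is a main flow sensor of endothelium, was read by 1 probe set with signals of 3343.4, 1696.3 and 1282.2 without the transgene and 2077.5, 3930.1 and 3132.7 with it. On the log2 scale these were 11.71, 10.74 and 10.34 against 11.03, 11.95 and 11.62. Non-transgenic culture 1 was the second highest of the 6, so the groups overlapped. The difference was 0.60 ± 0.39 (SE, limma adjusted p = 0.534). It was 0.99 without non-transgenic culture 1, 0.30 without non-transgenic culture 3 and 0.39 without transgenic culture 2. With each array centred on its median it was 0.87 (limma adjusted p = 0.215), where the median of all tested genes moved from -0.02 to 0.25.

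**Figure D3:**
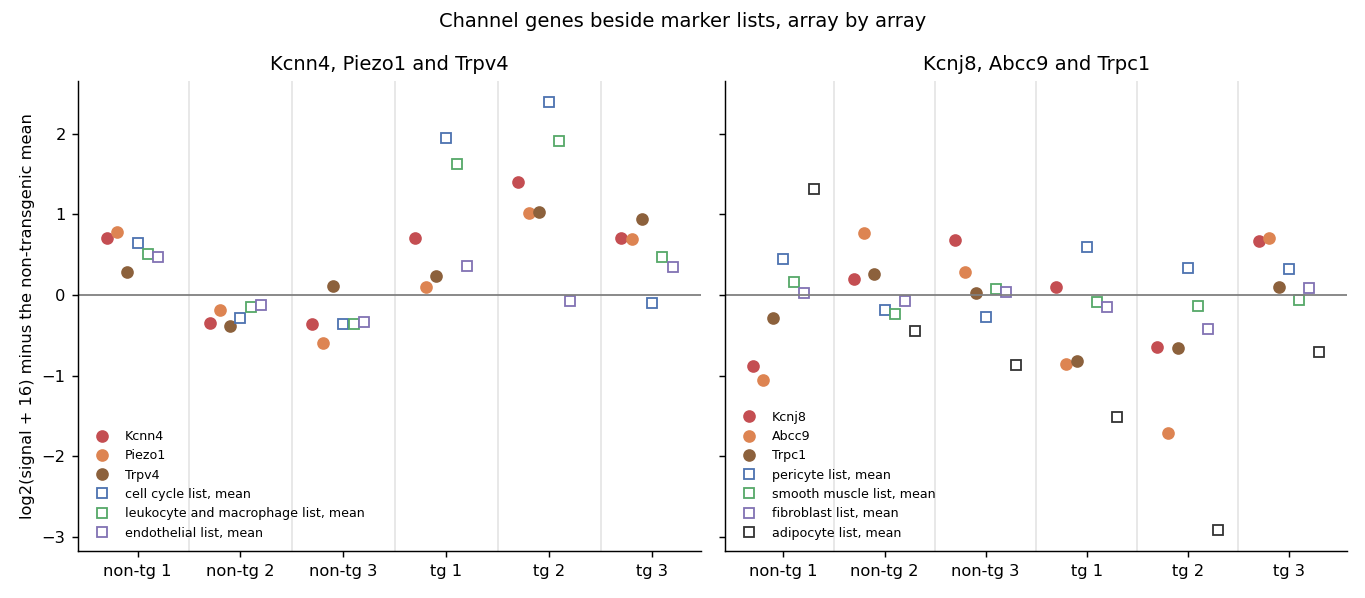
Channel genes (filled circles) and the mean of marker lists (open squares) in each culture, as log2(signal + 16) minus the non-transgenic mean; tg stands for transgenic and non-tg for non-transgenic. Kcnn4 and the cell cycle list were both highest in transgenic culture 2, and the list lay at -0.10 in transgenic culture 3. In transgenic cultures 1 and 2 the adipocyte list lay at -1.51 and -2.91, below Abcc9. There Abcc9 lay below the pericyte, smooth muscle and fibroblast lists.

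Trpv4 is a calcium-permeable channel opened by stretch, warmth and fatty acid epoxides, and in artery endothelium its calcium switches on Kcnn3 and Kcnn4 channels. It lay near the filter, at 7.42, 6.75 and 7.25 without the transgene and at 7.37, 8.17 and 8.08 with it. Transgenic cultures 2 and 3 lay above every non-transgenic culture, and transgenic culture 1 lay just below the highest of them. The difference was 0.73 ± 0.37 (SE, unadjusted p = 0.0842 and limma adjusted p = 0.532 without a filter). With each array centred on its median it was 1.0 (limma, unadjusted p = 0.0272 and adjusted p = 0.211 without a filter). That centring moved the median of all 11208 tested genes from -0.02 to 0.25. Of them, 2726 then lay higher and 99 lower with an unadjusted limma p under 0.05.

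Trpc1, a cation channel subunit linked to receptor- and store-operated calcium entry, had levels of 10.0, 10.55 and 10.31 without the transgene and of 9.47, 9.63 and 10.38 with it. The first 2 transgenic cultures lay below every non-transgenic one and the third lay among them. The difference of -0.46 ± 0.31 (SE, limma adjusted p = 0.548) was -0.74 without transgenic culture 3 (adjusted p = 0.0814) and -0.28 without transgenic culture 1. With array weights it was -0.95 and passed (adjusted p = 0.00133), in the fit that called 49.1% of all tested genes. With each array centred on its median it was -0.19. The second probe set of Trpc1, under the filter, was at 6.37, 6.30 and 5.40 against 5.59, 4.50 and 5.98, a difference of -0.67 ± 0.47 (SE), with transgenic culture 2 the lowest of the 6.

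Trpc6, a channel opened by diacylglycerol and best known in smooth muscle and podocytes, lay far under the filter, with signals of 67.5, 29.0 and 63.7 without the transgene and of 23.7, 5.8 and 1.3 with it. All 3 transgenic cultures lay below every non-transgenic one, at 5.31, 4.45 and 4.11 against 6.38, 5.49 and 6.32. The difference was -1.44 ± 0.42 (SE, unadjusted p = 0.00898 and limma adjusted p = 0.502 without a filter). Because these signals are near or below the added 16, the size depended on it, being -2.81 with a pseudocount of 1 and -0.66 with one of 64, and no fold is given. Smooth muscle markers, whose values stand beside those of Abcc9, overlapped between the groups in summed signal. Among those under the filter, Des (2.23) and Actg2 (2.35) lay higher with the transgene, and Myh11 (-0.06) and Cnn1 (-0.37) lower. The part of smooth muscle markers in the Trpc6 values was not tested.

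**Figure D4:**
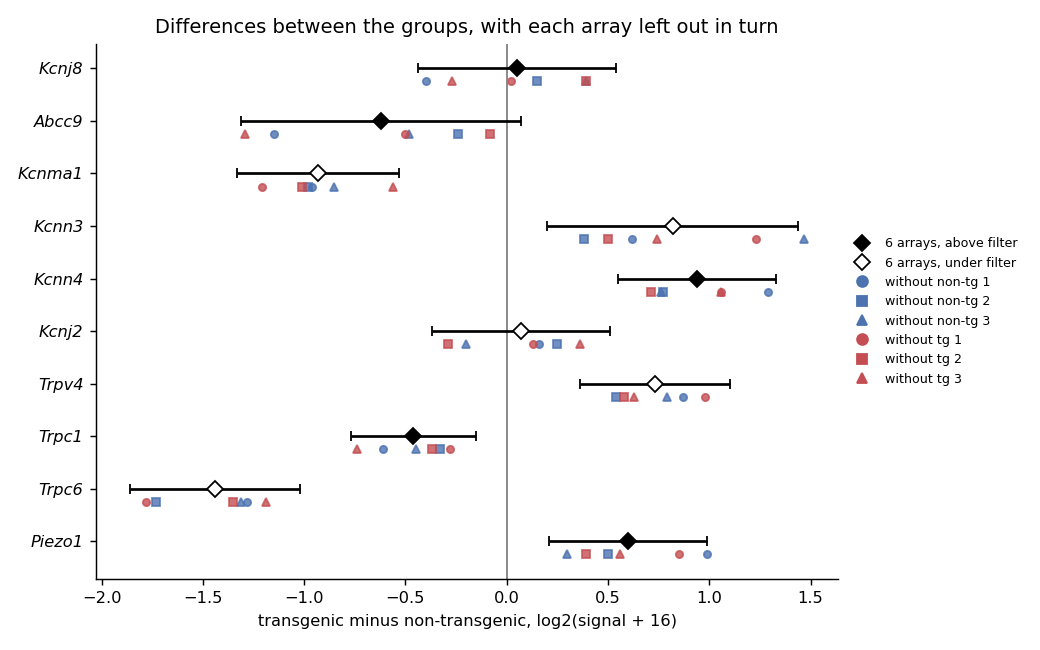
Difference between the groups for each channel gene, transgenic minus non-transgenic in log2(signal + 16), with limma's SE over 6 arrays (diamonds, filled where the gene lay above the level filter) and the value with each array left out in turn (small points). Leaving out an array turned the sign of Kcnj8 and Kcnj2, and the values of Kcnn4 stayed between 0.71 and 1.29.

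Tested genes with the values most like a channel gene were named by the same measure, 3 for each of the 5 tested channel genes, as a description over 6 arrays. For Kcnn4 these were Ttyh2 (0.12), the membrane channel gene Panx1 (0.12) and Plpp2 (0.15), where the median over all tested genes was 0.70. For Piezo1 they were Ackr4 (0.14), the basement membrane proteoglycan Hspg2 (0.14) and the collagen receptor Mrc2 (0.15), against a median of 0.64. For Trpc1 they were Tlcd5 (0.05), the scaffold gene Mpdz (0.06) and Gm10336 (0.06), against 0.45. For Kcnj8 they were the monoamine oxidase gene Maob, Crispld2 and the GABA receptor gene Gabra3 (0.21 each), against 0.65. For Abcc9 they were Pcdhb20 (0.28), 6330403K07Rik (0.30) and the neuropilin Nrp2 (0.31), against 0.95. Kcnj8 and Abcc9, the partners of one channel, differed by 0.57, with 23.6% of tested genes closer to Kcnj8 than Abcc9 was. Both lay low in non-transgenic culture 1 and transgenic culture 2. In transgenic culture 1 Kcnj8, at 8.80, lay above its mean over the 6 arrays (8.72), and Abcc9, at 7.44, below its own (7.99).

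Of 133 other genes of channel families, in 6 lists, 118 were on the array and 41 were tested. No gene of the lists passed the threshold. Of the 41, 3 had an unadjusted p under 0.05 and lay higher and 2 lay lower, where 6.47% and 5.02% of all tested genes did, and the median difference was -0.04 against -0.02 over all tested genes. Without transgenic culture 3, 3 of the 41 were called higher and 3 lower, where 14.7% of all tested genes were called. With any other single array left out, 0 of all tested genes were called. That culture was chosen for its likeness to the non-transgenic arrays, so the genes that passed without it are a description, not a test.

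Among the closest relatives of the potassium channels, 4 of 19 on the array were tested, 1 higher and 3 lower, with a median of -0.22. The related genes Kcnj11 and Kcnn1 differed by -0.08 and -0.35, and Kcnt2 by -0.50 ± 0.33 (SE, limma adjusted p = 0.548). Kcnj15, an inward rectifier of epithelia, was at 7.32, 6.25 and 7.64 against 9.89, 9.17 and 7.0, high in the first 2 transgenic cultures only. Its difference of 1.62 ± 0.74 (SE, limma adjusted p = 0.442) was 2.46 and passed without transgenic culture 3 (adjusted p = 0.0144). Kcnj15 was tested only through those 2 cultures, since its non-transgenic mean of 7.07 lay under the filter. Of the voltage-gated potassium channel genes 5 of 24 were tested, 2 higher and 3 lower, with a median of -0.13. Kcnd1 differed by 0.27, Kcna4 by 0.19, Kcnab1 by -0.30 and Kcnd3 by -0.61.

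Of the two-pore potassium channel genes, which carry the resting leak, 2 of 12 were tested, 1 higher and 1 lower, with a median of 0.46. The stretch-sensitive Kcnk2 was at 7.83, 6.59 and 6.31 against 9.06, 9.57 and 7.10, with transgenic culture 3 inside the non-transgenic range. Its difference of 1.67 ± 0.69 (SE, limma adjusted p = 0.428) was 2.41 and passed without that culture (adjusted p = 0.0173). Kcnk2 was tested only through its transgenic levels, since its non-transgenic mean of 6.91 lay under the filter and its mean over all arrays was 7.74. Kcnk3 differed by -0.74 ± 0.63.

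Of the other TRP channel genes 4 of 21 were tested, 1 higher and 3 lower, with a median of -0.11. Trpm7, a channel fused to a kinase that carries magnesium and calcium, was at 11.61, 12.02 and 11.61 against 11.22, 11.05 and 11.37. All 3 transgenic cultures were lower, as for 6.72% of tested genes, and each of its 4 probe sets, all above the filter, was lower in the transgenic mean. Its difference was -0.54 ± 0.20 (SE, limma adjusted p = 0.428). Pkd2l2 differed by 0.13 and Mcoln1 by -0.18.

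Of the other mechanosensitive and volume-regulated genes 11 of 19 were tested, 8 higher and 3 lower, with a median of 0.18. Lrrc8d, a subunit of the volume-regulated anion channel, was at 11.54, 10.95 and 10.95 against 12.21, 12.64 and 11.56. The groups did not overlap, but transgenic culture 3 was within 0.02 of the highest non-transgenic culture. Its difference of 0.99 ± 0.31 (SE, limma adjusted p = 0.428) was 1.28 and passed without that culture (adjusted p = 0.0154). Panx1, which lets ATP out of the cell, differed by 0.89 ± 0.36 (SE, limma adjusted p = 0.428), Pkd1, the partner of the polycystin channel, by -0.51 ± 0.50, and Piezo2, the relative of Piezo1, by -0.29 ± 0.30. Without transgenic culture 3 Pkd1 was at -1.14 and passed (adjusted p = 0.018).

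Of the calcium entry and release genes 15 of 23 were tested, 4 higher and 11 lower, with a median of -0.15. The calcium store sensor Stim2 differed by 0.38 ± 0.20 and the pore of the L-type calcium channel, Cacna1c, by 0.56 ± 0.32. The calcium channel subunit Cacnb4 was at 8.08, 8.44 and 8.27 against 7.57, 7.55 and 7.69, with no overlap. The difference was -0.66 ± 0.27 (SE, limma adjusted p = 0.428). All transgenic levels of Cacnb4 lay under the filter, so it was tested only through its non-transgenic levels. The calcium pump Atp2b1 differed by -0.49 ± 0.23. Without transgenic culture 3 the median of the calcium list was -0.27, and 2 of its genes were called lower: the store sensor Stim1 (-0.43 with all arrays, -0.76 without that culture, limma adjusted p = 0.0194) and the calcium channel gene Orai3 (-0.46 and -0.87, adjusted p = 0.0369). Centring each array on its median moved the median of all tested genes from -0.02 to 0.25. The list medians then were 0.05, 0.14, 0.73, 0.16, 0.45 and 0.12 in the order given. The same 4 lists lay below the median of all tested genes, and the same 2 above it, with and without centring. Centring moves the difference of every gene by the same amount, so this order could not change. The two-pore list, above it, held only Kcnk2 and Kcnk3, of opposite sign. With quantile normalization the list medians were 0.00, -0.15, 0.70, -0.02, 0.18 and -0.04, against 0.01 over all tested genes.

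**Figure D5:**
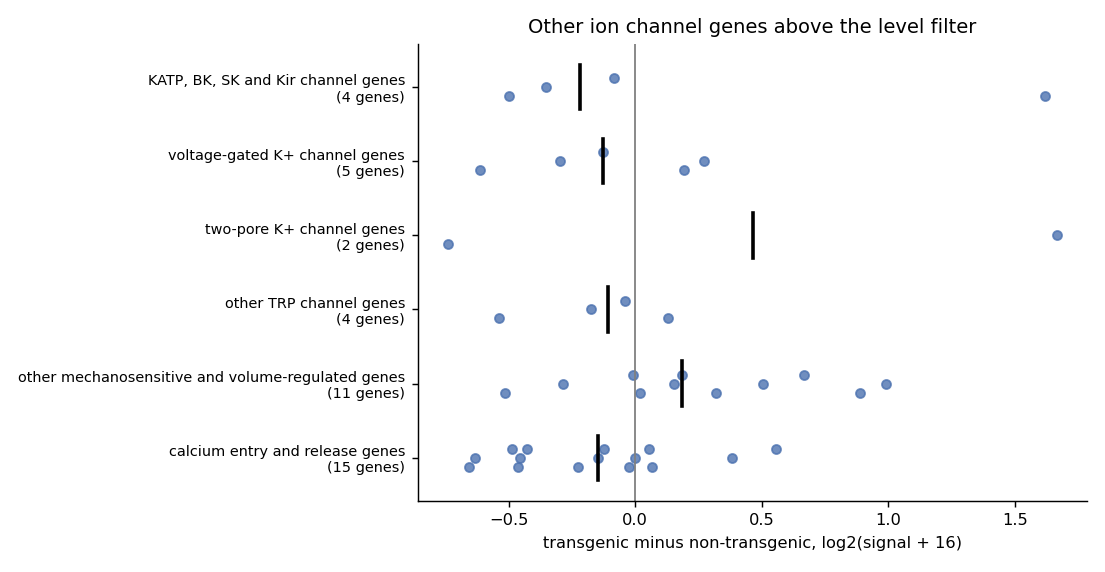
Differences of the 41 other channel genes above the level filter, transgenic minus non-transgenic in log2(signal + 16), one point per gene, with the median of each list as a bar. Kcnj15 and Kcnk2 lay farthest from 0, at 1.62 and 1.67, and both reached the filter only through transgenic cultures.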

How the data were processed

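RNA of 3 non-transgenic and 3 transgenic cultures was hybridized to Affymetrix GeneChip mouse genome arrays after amplification from about 50 ng, per the labels' protocols. The authors deposited one linear intensity per probe set and array, which the submitters' processing notes credit to MAS5 (no version stated). Each array had a trimmed mean of 1500, and this scale was left as it was. No detection calls were used. Nothing in the labels pairs the cultures of different groups, and p-values measure the spread between cultures.

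Of 45101 probe sets, 64 were controls, 34945 had 1 gene in the array annotation, 932 several and 9160 none listed. A current symbol was found through the gene identifier for 34741. RefSeq (GRCm38.p6) gave names and promoter windows; the expression table has no genome build. All 10 members had a window, and the first 250 bases were used.

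Groups were compared on log2(intensity + 16) in R 4.3.3 with limma 3.58.1 (lmFit, eBayes with a variance trend, two-sided), adjusted by Benjamini-Hochberg over 11208 genes, or 18193 without a filter, at 0.05. Probe sets were also fitted on their own, 22519 above the filter, and their differences and SE come from that fit. Genes under the filter have values from the fit without it. The test was checked on simulated data. As alternatives the pseudocount, filter, scaling and variance trend were altered, array weights, the mean of a gene's probe sets or a replicate block was used, and each array was left out in turn.

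The members, lists and rules were chosen with earlier results of these data known. Named genes are all members, up to 2 genes per direction with the smallest p in each related list, and 3 genes most like each tested member with a range of at least 1. Kcnj11, Stim1, Orai3, the marker genes given with values and the nearest pair of members were named after their values were seen. Of the marker lists, pericyte, smooth muscle, fibroblast, adipocyte, leukocyte and macrophage and cell cycle results are in the text. The endothelial mean, over 8 of 20 markers, was 0.47, -0.13 and -0.34 without the transgene and 0.36, -0.07 and 0.35 with it. Its summed signal was 13870 to 18706 against 15145 to 20656, and the median of its differences 0.34. With the transgene, the mean of Schwann and neural markers was 0.60, 1.62 and 0.35, and that of mesothelial and epithelial markers -0.60, 0.84 and -0.12. These means are log2 differences from the non-transgenic group. The number of arrays limits the precision.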

Additional observations from a re-analysis of the deposited data

How the results depend on the processing

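The number of channel genes passing limma's adjusted p of 0.05 was 0 in all alternatives except estimated array weights, where 3 of 5 tested genes and 3 of 5 tested probe sets passed (Abcc9, Kcnn4 and Trpc1), against 49.1% of all tested genes and 49.2% of all tested probe sets. Those weights were 5.24 and 4.65 for transgenic array 1 and non-transgenic array 2 and 0.177 to 1.20 for the others, and the cause was not tested. A weight estimate among these fits stopped before its tolerance was reached. Of 151 alternative values of the 10 differences, 145 kept their direction. Kcnj8 turned to -0.12 and Kcnj2 to -0.05 with array weights. With each array left out in turn Kcnj8 ran from -0.40 to 0.39 and Kcnj2 from -0.29 to 0.36. Array weights also gave -0.49 for Kcnma1, 0.48 for Kcnn3, -0.77 for Trpc6 and 0.35 for Piezo1. The alternatives for filters, pseudocounts, scalings, the variance trend and the mean of probe sets turned no sign. With the replicate block Kcnn4 differed by 0.94 (adjusted p = 0.517) and 0 channel genes passed. The deviations of same-numbered arrays from their group means correlated at 0.0421, -0.278 and -0.0336. With 3 arrays per group these values cannot show whether a day, litter or batch was shared, and the labels state none. The block changed the genes with an unadjusted p under 0.05 from 725 higher and 563 lower to 603 and 514. No array correlated best with the one of its own number. Signal near the added 16 limits Trpc6, Kcnn3 and the dimmer probe sets. Only Piezo1 of the 10 genes has a value with the filter at the 75th percentile.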
